A study of Mus musculus with 2 samples.

Results

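The genes described here encode the mitochondrial respiratory chain and ATP synthase, and were taken by name: 12 protein-coding genes of the mitochondrial genome and 21 nuclear genes, 33 of the 19626 genes in the deposited table. The list is fixed by gene name, but it was chosen with earlier results of these data known. All 33 symbols occurred in the table. By complex, the nuclear genes were 5 subunits of complex I, 2 of complex II, 3 of complex III, cytochrome c, 7 of complex IV and 3 of complex V. The RNA came from single cells of the incisor cervical loop region, epithelium and mesenchyme together, of mice at postnatal day 20. The control library came from 1 mouse labelled only as control, and the mutant library from 1 mouse labelled Memo1;K14CRE, in which the K14 promoter drives Cre in keratin 14-expressing epithelium. Which part of Memo1 is removed and the full genotype of the control are not given in the sources used here. With 1 library in each group no test between genotypes was possible: intervals are exact 95% limits for counting error only, they hold no difference between mice, and no p-value is given.

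The respiratory chain passes electrons from NADH and succinate through complexes I and II to ubiquinone, on to complex III, cytochrome c and complex IV, where oxygen is reduced. Complexes I, III and IV pump protons across the inner membrane, and ATP synthase (complex V) uses that gradient to make ATP. Every complex but II is built from subunits of both genomes, the mitochondrial transcripts being cut from long polycistronic precursors. In the enamel organ, ameloblasts secrete matrix and later move ions, and the cells of the stratum intermedium and papillary layer beside them are known to be rich in mitochondria.

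The control library held 9708 cells with 79518656 counts (median 2643 per cell) and the mutant library 13820 cells with 120862385 counts (median 6798). Of these, 2981 control and 2303 mutant cells carried the authors' ameloblast lineage cluster numbers 0 to 8, and all cells carried all-cell cluster numbers 0 to 28. A level below is the sum of unique molecular identifier (UMI) counts over the cells of a cluster over all counts of those cells, times 1000000 (CPM). Ratios between libraries were taken in the 8 lineage and 26 all-cell clusters with at least 50 cells in both. By markers, lineage cluster 1 was like outer enamel epithelium or stellate reticulum, 3 and 6 secretory ameloblast-like, 5 stratum intermedium or papillary layer-like and 7 maturation ameloblast-like, whereas 0, 2, 4 and the mutant-only cluster 8 could not be named. The libraries shared 139 cell barcodes, and doublets were not called. Memo1 stood at 20.3 CPM in control and 17.8 CPM in mutant cells of the lineage (657 and 430 counts); 3' counting may not see the deleted stretch, so this checks neither label.

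The nuclear subunits were concentrated in lineage clusters 0 and 2. Their summed level was 23751 CPM in control and 17490 CPM in mutant cells in cluster 0, and 19676 and 17331 CPM in cluster 2. Cluster 5, the stratum intermedium or papillary layer-like cells, came next on this scale with 11690 and 10717 CPM. The remaining lineage clusters were lower in both libraries, from 6038 CPM (cluster 7) to 7749 CPM (cluster 4) in the control and from 5284 CPM (cluster 7) to 8387 CPM (cluster 4) in the mutant. Outside the main clusters of the lineage, the 18 control clusters with at least 50 cells ranged from 669 CPM in erythroid cells to 8173 CPM. Cells of lineage clusters 0 and 2 gave 25.8% of all counts of these 21 genes in the control library from 9.47% of its counts, and 8.87% from 3.31% in the mutant library.

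**Figure D1:**
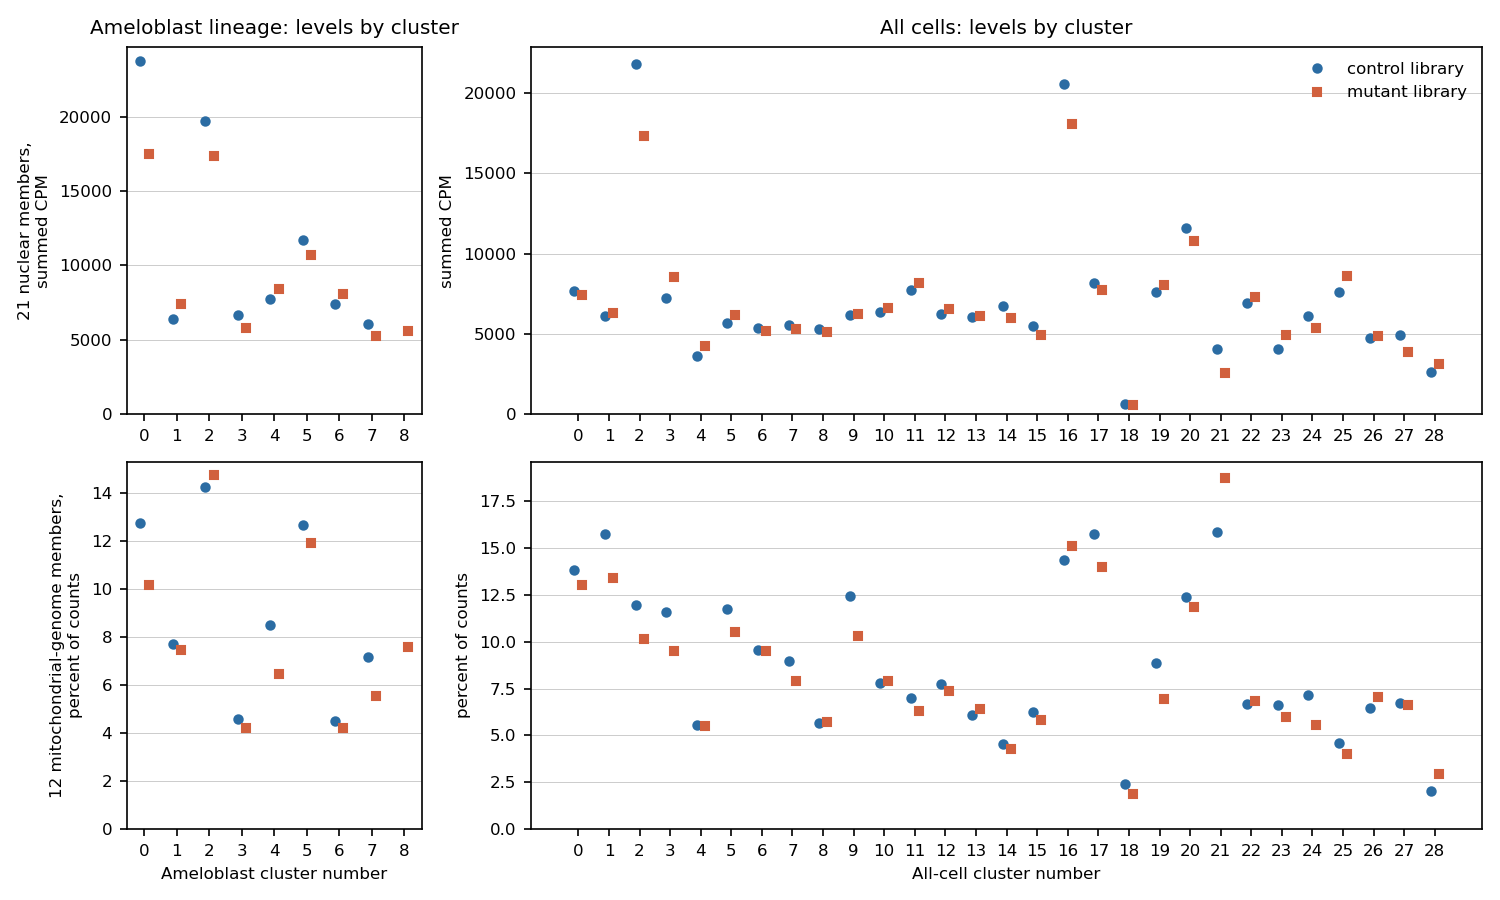
Summed level of the 21 nuclear members (CPM) and percent of counts from the 12 mitochondrial-genome members, by lineage cluster and by all-cell cluster, with 1 point for each library. The nuclear sum is highest in lineage clusters 0 and 2 in both libraries, while the mitochondrial percent of cluster 5 is close to that of cluster 0 in the control (12.7% and 12.8%) and above it in the mutant (11.9% and 10.2%).

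Cluster 0 was shallow, with a median of 1092 UMIs per control cell and 898 per mutant cell, against 15855 and 14030 in cluster 2. Among cells of 1000 to 2000 UMIs, cluster 0 stood at 21803 and 17953 CPM of the nuclear members and the other lineage clusters without cluster 2 at 7886 and 8285 CPM. Among cells under 1000 UMIs the values were 17992 and 16094 CPM against 7107 and 5780 CPM. In both bands the nuclear level of cluster 0 was above that of the other clusters; the bands are wide, and depth was not matched within them. Erythroid markers led cluster 0 by fold (4 of 5 markers, summed 13190 and 5219 CPM), and the erythroid cluster held 669 and 576 CPM of the nuclear members; their part in the level of cluster 0 was not tested. The keratins Krt14 (2721 and 2527 CPM) and Krt5 (1935 and 1685 CPM) were present there, as in other epithelium.

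The pattern ran through most subunits. In the control library 16 of 21 nuclear members had their highest lineage level in cluster 0, and 2, Ndufb9 and Cox4i1, in cluster 2; in the mutant library 9 peaked in cluster 0 and 11 in cluster 2. Atp5b, the catalytic beta subunit of ATP synthase, stood at 2322 CPM in cluster 0, 1802 in cluster 2 and 235.7 in cluster 3 in the control, and at 1646, 1605 and 234.9 CPM in the mutant. Cycs, cytochrome c, stood at 1160, 731 and 119.8 CPM in the control and at 774, 757 and 156 CPM in the mutant. Uqcrc1, a core subunit of complex III, stood at 572, 558 and 71.1 CPM in the control and at 422, 429 and 91.1 CPM in the mutant. All 3 genes were thus several times higher in clusters 0 and 2 than in secretory ameloblast-like cluster 3. Against the median of the other lineage clusters, 19 of 21 nuclear members were at least 2-fold higher in control cluster 0 (median 3.83-fold, with 14.9% of 7748 genes as high) and 18 of 21 in control cluster 2 (median 3.14-fold, 17.4% of genes). In the mutant these numbers were 17 of 21 (median 2.62-fold, 12.6% of 8262 genes) and 18 of 21 (median 2.51-fold, 18.9%). Clusters were made from the same genes, and the list was chosen with earlier results of these data known. These levels are therefore a description. Secretory clusters were diluted by enamel matrix transcripts. With matrix and haemoglobin genes taken out of the totals, the nuclear sum of cluster 3 became 12636 CPM in control and 10601 CPM in mutant cells. Cluster 5 then stood at 11704 and 10732 CPM, so that the order of these clusters in the control depends on the totals. Over all counts, Sdhb gave 1359 CPM and Ndufa1 1015 CPM of the 6650 CPM of control cluster 3. In control cluster 5 they stood at 232.4 and 464.8 CPM. The order without these genes was not tested.

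**Figure D2:**
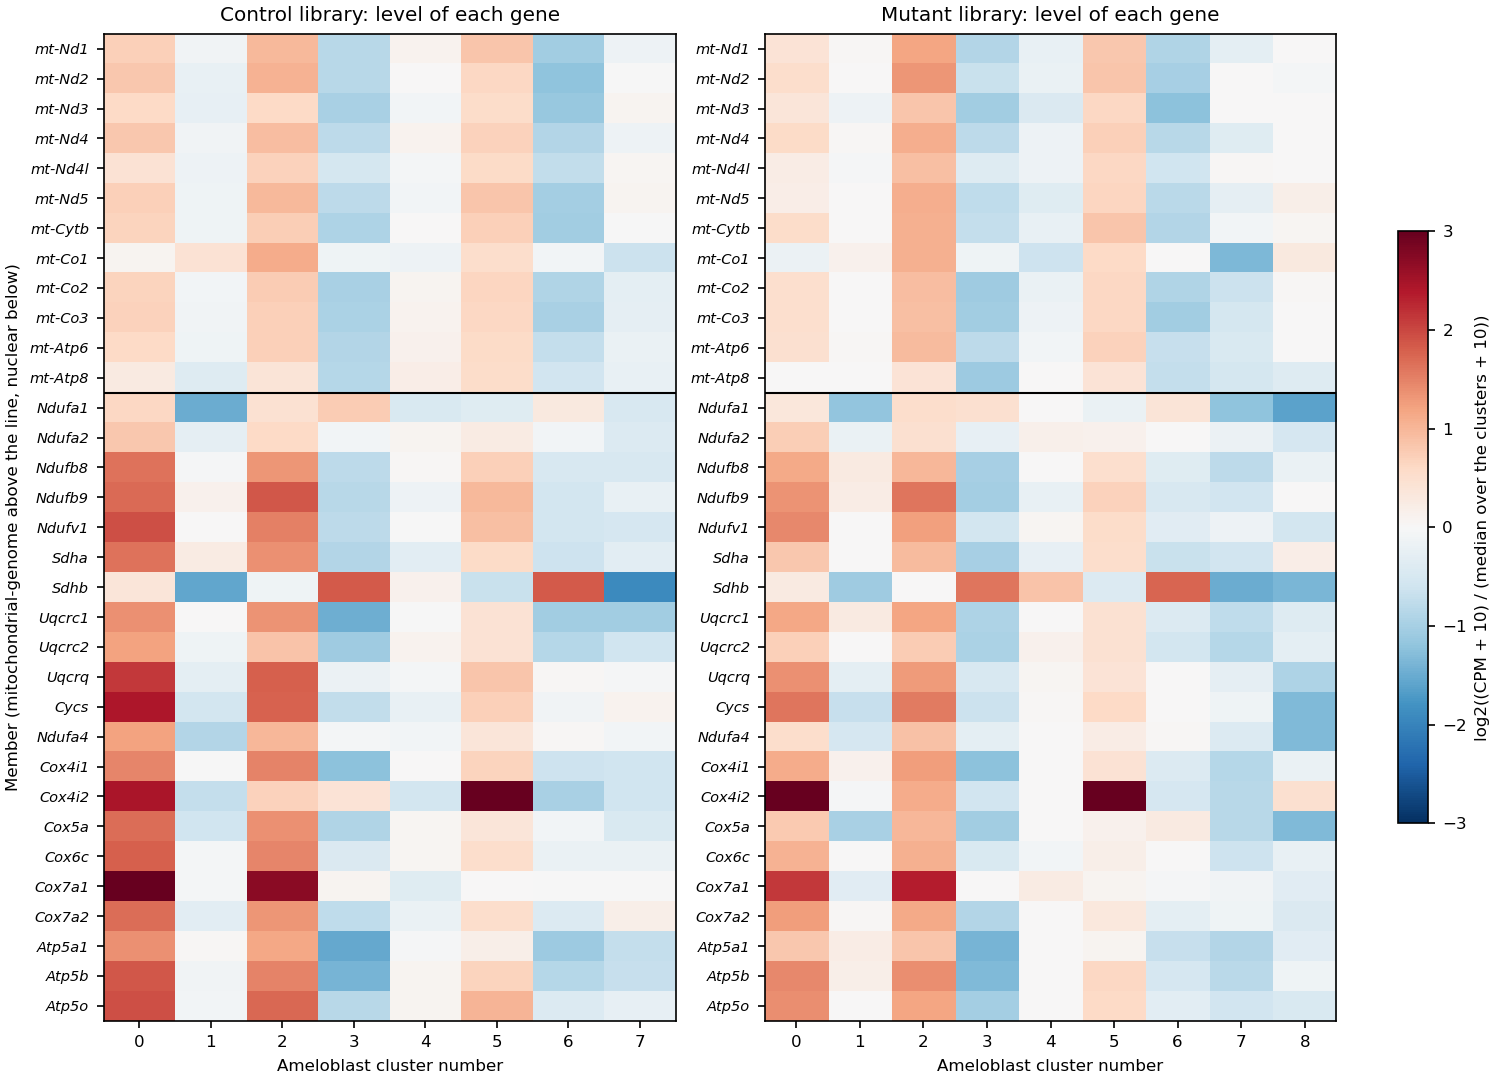
Level of each of the 33 members in each lineage cluster and library, as log2 of CPM plus 10 over the member's median across clusters plus 10, with colours ending at 3 in either direction. Most nuclear members are highest in clusters 0 and 2; Sdhb and Ndufa1 are high in secretory clusters 3 and 6, and Cox4i2 in clusters 0 and 5.

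Sdhb and Ndufa1 departed from this pattern. Sdhb, the iron-sulfur subunit of succinate dehydrogenase (complex II), was highest in the secretory ameloblast-like clusters, at 1359 CPM in cluster 3 and 1364 CPM in cluster 6 of the control library and at 906 and 1005 CPM in the mutant. It stood at 481.8 CPM in control cluster 0 and 92.4 CPM in control cluster 7. Over all counts, its partner Sdha, the flavoprotein subunit, was lowest in cluster 3, at 35.3 CPM in control and 32.9 CPM in mutant cells. In cluster 0 it stood at 248.9 and 139.1 CPM. Matrix and haemoglobin genes gave 47.37% and 45.33% of cluster 3 counts, so that the lowest rank of Sdha there depends on the totals. The membrane anchor subunits Sdhc (24.6 and 24.8 CPM) and Sdhd (31.2 and 28.3 CPM), which are not among the 33 genes, were low in cluster 3 as well. Within complex II, Sdhb therefore followed the secretory clusters while the other subunits did not. Ndufa1, an accessory subunit of complex I, reached 1015 CPM in control cluster 3 and 733 CPM in cluster 6, with 925 CPM in cluster 0, whereas Ndufb8, another accessory subunit of the same complex, stood at 136.9 CPM in control cluster 3 and 772 CPM in cluster 0. Across the 26 control and 29 mutant all-cell clusters, which share a library and its depth, the level of Sdhb correlated with the sum of the other nuclear members at Pearson r of 0.59 and 0.70, and Cox4i2 at 0.39 and 0.42.

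Cox4i2, the tissue-restricted isoform of complex IV subunit 4 known from lung, was a gene of mesenchyme and pericytes here as much as of epithelium. As a share of the counts of Cox4i1 and Cox4i2 together, it made up 49.5% in the control and 46.2% in the mutant library in all-cell cluster 5 (led by Smoc2), 43.5% and 41.4% in cluster 6, and 45.1% and 40.7% in pericyte or smooth muscle-like cluster 10. The share was 1.74% and 2.61% in endothelium-like cluster 8, and 1.16% and 2.81% in fibroblast-like cluster 13. In the lineage it was highest in stratum intermedium or papillary layer-like cluster 5, at 29.2% and 30.5%, followed by mutant cluster 0 at 23.4%, and lowest in cluster 1, at 3.79% in the control. With every cell thinned to 1000 UMIs, 46.5% (39.6 to 53.4, Clopper-Pearson) of control and 43.7% (36.2 to 51.4) of mutant cells of cluster 5 had a Cox4i2 UMI, against 1.40% and 1.23% in secretory ameloblast-like cluster 6. Without thinning, the shares were 95.3% and 94.3% in cluster 5 (median 17673 and 13732 UMIs) and 39.9% and 28.2% in cluster 6 (median 28926 and 29809 UMIs).

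Cox7a1, the heart and skeletal muscle isoform of complex IV subunit 7a, was found in lineage clusters 0 and 2 and hardly elsewhere in the lineage. It stood at 190.6 CPM (392 counts) in control and 45.0 CPM (56 counts) in mutant cells of cluster 0, and at 74.1 and 55.1 CPM in cluster 2, whereas no other lineage cluster passed 5 CPM in either library. The widely expressed isoform Cox7a2 was at 1702 and 1373 CPM in cluster 0, so that Cox7a1 made up 10.1% of the counts of both isoforms in the control (9.14 to 11.1) and 3.17% in the mutant (2.41 to 4.10). Of 6 skeletal muscle markers, Acta1, Ckm and Tnnt3 had 0 counts in cluster 0 of both libraries, Myh1 had 1 and 0, Myh4 had 24 and 17 and Mylpf had 7 and 10, together 15.6 and 21.7 CPM. After thinning to 1000 UMIs, which left out 513 of 1155 control and 581 of 1023 mutant cells as shallower, 13.2% (10.7 to 16.1) of control and 3.39% (1.91 to 5.54) of mutant cells of cluster 0 had a Cox7a1 UMI. In cluster 3, none of 223 control and 286 mutant cells had one after thinning (upper limits 1.64% and 1.28%). Without thinning the shares were 14.98% and 4.11% in cluster 0 and 8.97% and 6.29% in cluster 3, whose cells were far deeper (median 35309 and 32700 UMIs). The 150 bases before the first exon of each isoform, 5' to 3' on the gene's strand and from RefSeq on GRCm38.p6, are shown because both genes encode the same subunit for different cells; capitals mark CG dinucleotides. Cox7a1 is at chr7:30183994-30184143 (+) and Cox7a2 at chr9:79759879-79760028 (-).
Cox7a1: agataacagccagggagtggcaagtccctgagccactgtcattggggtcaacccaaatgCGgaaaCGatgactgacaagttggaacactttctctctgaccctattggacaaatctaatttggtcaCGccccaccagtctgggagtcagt
Cox7a2: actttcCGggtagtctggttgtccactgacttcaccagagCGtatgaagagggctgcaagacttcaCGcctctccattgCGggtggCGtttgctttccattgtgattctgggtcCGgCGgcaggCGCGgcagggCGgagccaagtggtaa
The stretch before Cox7a1 holds 3 CG dinucleotides and that before Cox7a2 holds 10.

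**Figure D3:**
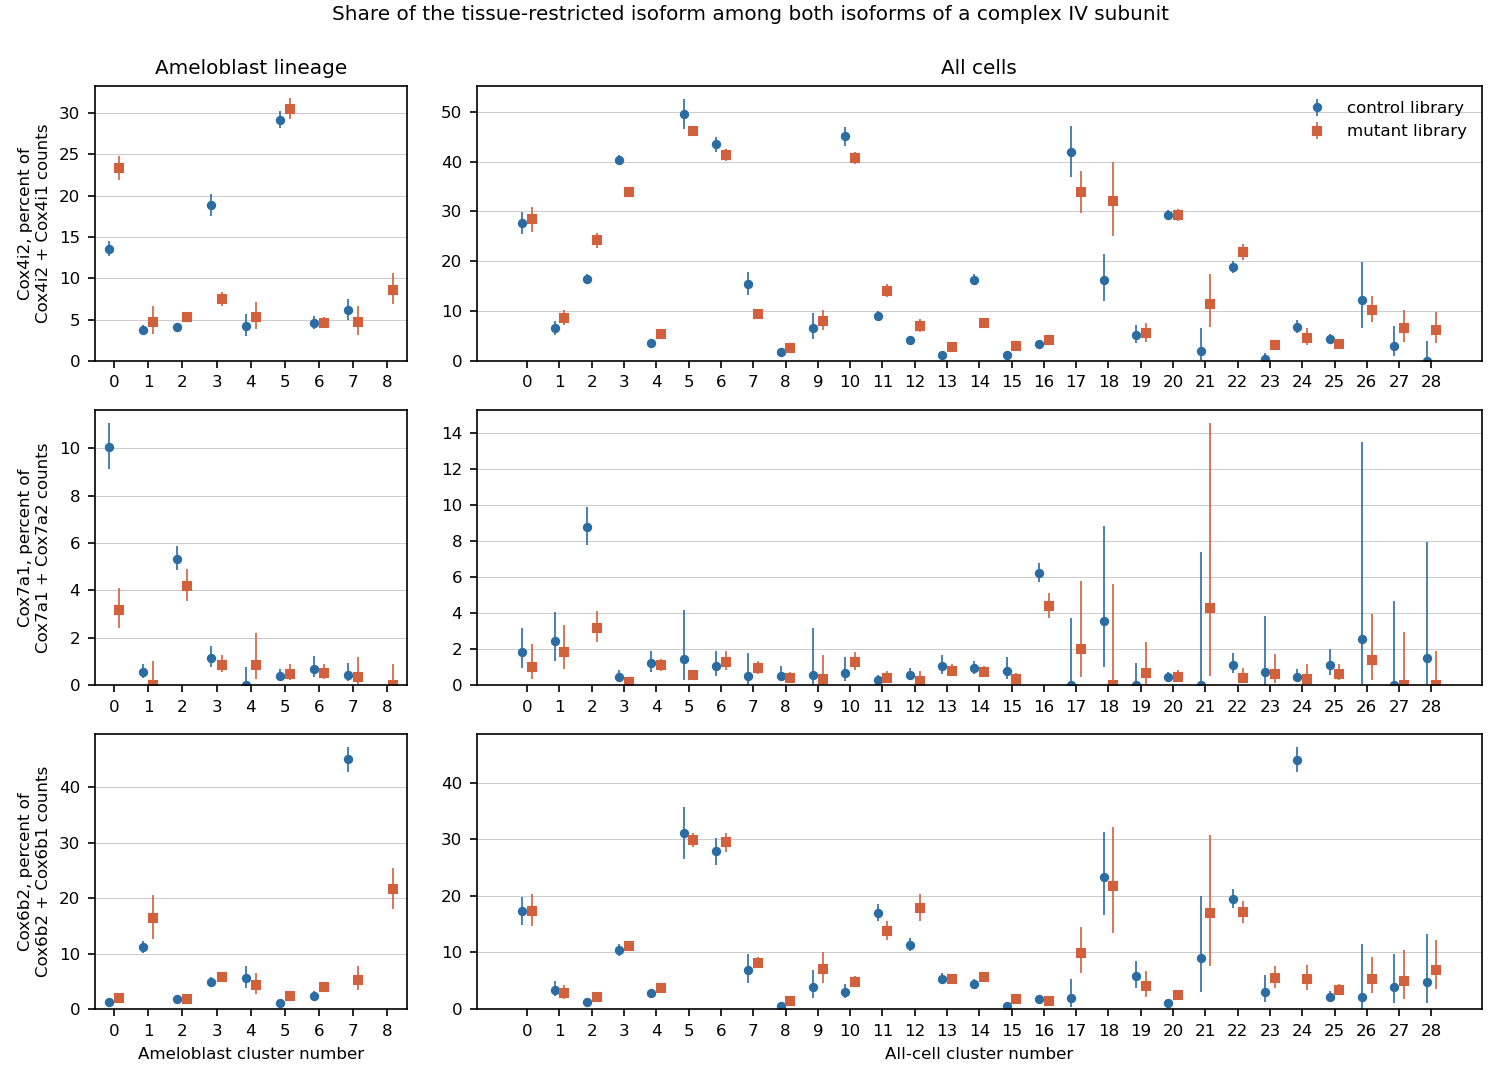
Counts of 1 isoform as a percent of the counts of both isoforms of a complex IV subunit (Cox4i2 with Cox4i1, Cox7a1 with Cox7a2, Cox6b2 with Cox6b1), by cluster and library, with exact 95% binomial intervals for counting error. Cox4i2 reaches 49.5% in all-cell cluster 5, Cox7a1 10.1% in control lineage cluster 0, and Cox6b2 45.0% in control lineage cluster 7.

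The transcripts of the mitochondrial genome were distributed differently from the nuclear ones. They made up 14.3% of control and 14.8% of mutant counts in lineage cluster 2, 12.8% and 10.2% in cluster 0, and 12.7% and 11.9% in cluster 5. The secretory ameloblast-like clusters had the lowest percent of all counts, 4.59% and 4.22% in cluster 3 and 4.52% and 4.23% in cluster 6. Matrix and haemoglobin genes gave 47.37% and 45.33% of the counts of cluster 3, and 26.25% and 20.43% of those of cluster 6. The place of cluster 3 therefore depends on the totals, and its mt-Co3 level given below is diluted in the same way. Of the 12 transcripts, 11 were highest in cluster 2 in each library, and mt-Atp8 was highest in cluster 5. Among them mt-Co3, a core subunit of complex IV, stood at 28676 CPM in control and 31885 CPM in mutant cluster 2, and at 9113 and 8296 CPM in cluster 3. The catalytic subunit of complex IV, mt-Co1, was an exception to the common course, at 11.3% and 11.2% of mitochondrial counts in cluster 3 but only 5.03% and 3.66% in maturation ameloblast-like cluster 7. Outside the lineage, fibroblast-like all-cell cluster 21 had the highest mitochondrial percent in each library (15.9% and 18.8%) and a low nuclear sum (4060 and 2537 CPM), and its cells held a median of 1186 and 1168 UMIs. The ratio of mitochondrial to nuclear counts went from 5.50 in all-cell cluster 2 to 39.1 in cluster 21 of the control library. Across all-cell clusters, which share library and depth, the mitochondrial and nuclear sums correlated at r of 0.61 in the control (26 clusters) and 0.57 in the mutant (29 clusters), and the mitochondrial sum correlated with the clusters' median UMIs at -0.59 and -0.49.

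By the pattern most like the nuclear sum across all-cell clusters (Pearson r of log2 of CPM plus 10, among 8710 genes), the 10 leading genes outside the 33 were all subunits of the same complexes: Atp5h, Atp5d, Uqcrb, Cox6b1, Cox5b, Cox7c, Ndufs6, Ndufs5, Ndufb4 and Atp5k, with r of 0.963 to 0.980 over both libraries. The gene of citrate synthase, Cs, stood at 0.89 and 0.87, and the coactivator Ppargc1a, known for driving mitochondrial biogenesis, at 0.57 and 0.53. Ppargc1a was highest in lineage cluster 2, at 134 and 183 CPM, and stood at 65.2 and 42.6 CPM in cluster 0 and 40.8 and 51.4 CPM in cluster 5. The genes most like the mitochondrial sum were mt-Nd6 (0.91 and 0.90), the complex I gene on the opposite strand, then Gm42418 (0.79 and 0.86) and Khsrp (0.77 and 0.81).

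A motif of the kind bound by nuclear respiratory factor 1, GCGCA followed by any base and then GCGC, was searched on both strands in the 300 bases around the start (250 before, 50 after) of the 13 nuclear members with a RefSeq window (GRCm38.p6). It occurred in 3 of 13 windows, those of Sdha, Uqcrc1 and Atp5o, and in 1512 of 32851 windows of all genes (4.60%). The high level in control cluster 0 was not particular to these genes (4.35-fold for Sdha, 3.69 for Uqcrc1, 4.37 for Atp5o). Among members whose windows lack the motif, Cycs (6.34-fold) and Ndufv1 (4.98) were higher, and Ndufa1 (2.07) and Sdhb (1.51) lower. Whether motif and level go together was not tested. The windows with the motif are shown, with the motif in capitals within 30 bases of the gene's strand. For Sdha they lie at chr13:74350319-74350348, chr13:74350276-74350305 and chr13:74350231-74350260 (-), for Uqcrc1 at chr9:108936643-108936672 and chr9:108936668-108936697 (+), and for Atp5o at chr16:91931602-91931631 (-). A match is a description of letters, and binding was not measured.
Sdha: cgtttacaggGCGCAGGCGCaccaccactc
Sdha: ggggcgtgttGCGCAGGCGCagaatcttcc
Sdha: gcgactcggtGCGCAAGCGCagtctgtcgc
Uqcrc1: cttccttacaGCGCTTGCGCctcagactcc
Uqcrc1: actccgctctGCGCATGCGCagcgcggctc
Atp5o: gctggcgcgcGCGCGTGCGCtctggcgcca
The member windows held a median of 19 CG dinucleotides and all windows a median of 7.

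Between genotypes, the whole lineage had fewer counts of both gene groups in the mutant. The mitochondrial-genome sum was 85741 CPM in control and 69422 CPM in mutant cells (ratio 0.810), and the nuclear sum 10584 and 8795 CPM (0.831), whereas in all other cells the ratios were 0.992 and 1.05. By complex, the nuclear members of complex V (0.726) and complex III (0.747) were lower by more than those of the other complexes. The ratios were 0.836 for complex I, 0.866 for complex IV and 0.952 for complex II. The complex II value joins 2 unlike genes. Among lineage cells with at least 1000 UMIs, Sdhb stood at 654.7 and 654.4 CPM, while Sdha went from 99.4 to 67.8 CPM. The further nuclear subunits, which are not members, were also lower in the mutant but in another order. In proportion, those of complex II fell by most, from 201.4 to 139.1 CPM. Those of complex V went from 8713 to 7040 CPM and those of complex I from 8024 to 6658 CPM. The makeup of the lineage differed as well: clusters 0 and 2, where the nuclear members are highest, gave 23.3% of control and 16.5% of mutant lineage counts, and cluster 3 gave 23.8% and 37.8%. By number of cells, clusters 0 and 2 made up 50.2% of the control and 52.7% of the mutant lineage, and cluster 3 made up 7.48% and 12.4%.

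Within clusters the mitochondrial sum was lower in the mutant in 7 of 8 lineage clusters, with intervals below 1, and higher in cluster 2 (1.04, but 0.900 with trimmed mean (TMM) scaling). The ratios were lowest in cluster 4 (0.758), cluster 7 (0.773) and cluster 0 (0.799), and lay between 0.920 and 0.970 in clusters 1, 3, 5 and 6. The cluster 0 ratio turned to 1.10 (1.095 unrounded) when only cells with at most 10% mitochondrial counts were kept. That filter acts on the measured quantity itself. The median cell of cluster 0 held 13.6% of counts from the mitochondrial members in the control and 10.7% in the mutant. The nuclear sum was lower in 5 clusters, by most in cluster 0 (0.736). It was higher in cluster 1 (1.16), cluster 4 (1.08) and cluster 6 (1.09, but 0.924 with TMM scaling). In cluster 3 it went from 6650 to 5795 CPM, with Sdhb (1359 to 905.9 CPM), Ndufa1 (1015 to 661.9 CPM) and Cox4i2 called lower. The median log2 ratio of the 20 nuclear members that passed the filter there was 0.002, with 5 intervals above and 5 below 1. In clusters 1, 2, 4 and 6 the mitochondrial and nuclear ratios lay on opposite sides of 1. None of these 4 held under every alternative: TMM scaling ended it in clusters 2 and 6, thinning in cluster 1 (mitochondrial ratio 1.02) and a mean of cells in cluster 4 (nuclear ratio 0.966). Over the 26 all-cell clusters the mitochondrial sum was lower in 20 and higher in 6, while the nuclear sum was higher in 11, lower in 13 and not resolved in 2.

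**Figure D4:**
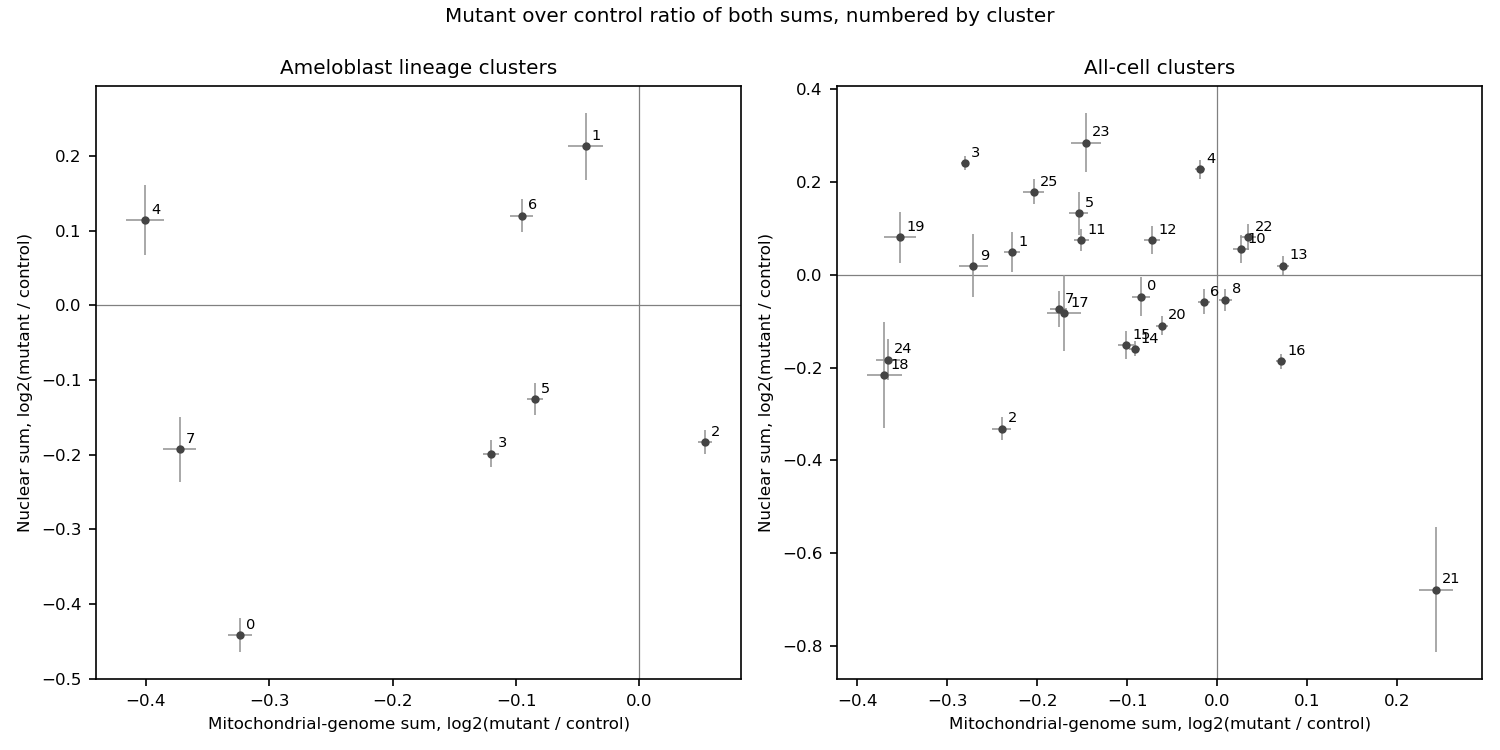
Mutant over control ratio (log2) of the mitochondrial-genome sum against that of the nuclear sum, 1 numbered point for each compared lineage cluster (left) and all-cell cluster (right), with lines for the 95% counting limits. Lineage cluster 0 is low on both axes, and cluster 4 is low for the mitochondrial sum alone.

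Single members were called higher or lower where the ratio passed 1.5-fold and its interval left out 1. Over the 8 lineage clusters, 2 of 258 member and cluster pairs were called higher and 23 lower, against 10.4% higher and 5.31% lower of all 58685 gene and cluster pairs. These calls fell on 14 genes in the lower direction, and none on any member in clusters 1 and 2, where 8.84% and 14% of all genes were called higher and 5.94% and 4.48% lower. Cox7a1 reached the filter in 2 lineage clusters only.

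Cluster 0 held the most calls: 3 mitochondrial and 7 nuclear members lower and 1 nuclear member higher, with 6.29% of all genes called lower and 10.1% higher. Cox7a1 had by far the lowest ratio, 0.236 (0.175 to 0.313). Sdha went from 248.9 to 139.1 CPM (0.559, 0.467 to 0.665), Uqcrq, a small subunit of complex III, from 1638 to 1021 CPM (0.623), and Atp5a1, the alpha subunit of ATP synthase, from 1186 to 739.5 CPM (0.623). Ndufa1, Ndufv1 (the NADH-binding flavoprotein of complex I) and Cox6c were the other nuclear calls, at ratios of 0.645 to 0.653. The shift was shared well beyond the called genes, since intervals lay below 1 for 12 of 12 mitochondrial and 19 of 21 nuclear members. Their median log2 ratios were -0.45 and -0.48 beside 0.04 for all genes tested. Nuclear intervals also lay mostly below 1 in cluster 2 (14 of 21, median log2 ratio -0.22 beside 0.15) and cluster 5 (12 of 20, -0.11 beside 0.22). In cluster 7 they lay below 1 for 7 of 20 nuclear members. In clusters 1, 4 and 6 they lay above 1 for 8, 5 and 13 of 20. In cluster 0 the opposite course was taken by Cox4i2, which rose from 392.8 to 620.5 CPM (1.58, 1.43 to 1.75). It was no longer past 1.5-fold with TMM (1.48) or DESeq2 scaling (1.47), with at most 10% mitochondrial counts (1.32) or after thinning (1.34), the direction being the same. Macrophage markers were higher in mutant cluster 0 for 6 of 6 genes (summed 313.6 and 688.8 CPM) and erythroid markers lower for 5 of 5. The pericyte markers summed to 86.1 and 231.5 CPM there and the fibroblast markers to 644.7 and 1201 CPM. Their part in the cluster 0 results was not tested.

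Other genes of the same pathways were also called lower in cluster 0. Called lower were 6 of 31 further subunits of complex I, 2 of 2 of complex II, 3 of 6 of complex III, 2 of 8 of complex IV and 2 of 14 of complex V, and none was called higher, where 6.29% of all genes were called lower and 10.1% higher. Ndufs1, a core subunit of complex I, went from 124.9 to 56.3 CPM (0.450), Uqcrfs1, the Rieske iron-sulfur protein, from 468.2 to 246.8 CPM (0.527), and Cyc1, cytochrome c1, from 527 to 299 CPM (0.567). In the tricarboxylic acid cycle 5 of 13 genes were called lower, with Idh3a at 0.548. Of the ribosomal lists, 1 of 20 mitochondrial ribosome genes was called lower, and 0 of 20 cytosolic ribosome genes were called in either direction (median log2 ratio 0.30). Of the import and carrier genes 2 of 21 were called lower, Phb (0.592) and the ADP/ATP carrier Slc25a5 (0.666), and of the transcription list 2 of 11, Tfb2m and Ppargc1a. Whether the lists differ was not tested. Cox6a2, the muscle isoform of complex IV subunit 6a, had 34 control counts and 1 mutant count in this cluster.

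In secretory ameloblast-like cluster 3, 3 nuclear members and 1 mitochondrial member were called lower and none higher, with 2.85% of all genes called lower and 7.8% higher. They were the members with the distinctive secretory or isoform pattern: Cox4i2 (88.0 to 31.8 CPM, 0.361), Ndufa1 (1015 to 661.9 CPM, 0.652) and Sdhb (1359 to 906 CPM, 0.667), beside mt-Atp8. Over the 20 nuclear members that passed the filter the median log2 ratio was 0.00 beside 0.12 for all genes, with 5 intervals above and 5 below 1. None of the further nuclear subunits of complexes I to V was called there. Of the other listed genes, the mitochondrial-genome complex I gene mt-Nd6 (1.72), the ADP/ATP carrier Slc25a4 (1.69) and Mrps5 were called higher. Cox4i2 thinned to 1000 UMIs per cell gave 5.38% (2.81 to 9.21) of control and 3.85% (1.94 to 6.78) of mutant cells with a UMI. These limits overlap and cover counting error only, and a difference between genotypes was not tested. Without thinning, the shares were 78.5% and 44.1% (median 35309 and 32700 UMIs).

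Cluster 4 had 3 lower calls, all mitochondrial (mt-Nd3 at 0.646, mt-Co1 at 0.666 and mt-Atp8 at 0.623), with 4.95% of genes called lower and 3.06% higher. Erythroid markers summed to 261.5 CPM in control and 19891 CPM in mutant cells of this cluster, and their part in these values was not tested. Its 20 nuclear members that passed the filter had a median log2 ratio of 0.12. In cluster 5 mt-Atp8 alone was called lower (1.81% of genes lower, 15.6% higher). In cluster 6 mt-Atp8 was called lower (2% of genes) and Cox5a, a nuclear subunit of complex IV, rose from 363.6 to 624.6 CPM (1.72, 1.61 to 1.83; 12.3% of genes called higher). All-cell cluster 25, which holds most cells of cluster 6, gave Cox5a at 436.4 and 806.7 CPM.

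In maturation ameloblast-like cluster 7, 2 mitochondrial and 2 nuclear members were called lower and none higher, with 14.7% of all genes called lower and 10.6% higher. The catalytic mt-Co1 went from 3608 to 2029 CPM (0.562), Ndufa1 from 429.7 to 198.7 CPM (0.462) and Cox4i2 from 39.3 to 24.9 CPM (0.635, 0.403 to 0.974). With 187 control and 78 mutant cells, these 4 calls are a share close to the background. From the complex IV list fixed beside the 33 genes, Cox6b2, the isoform of subunit 6b known from testis, went from 387.8 CPM (898 counts) to 20.6 CPM (24 counts). The mutant over control ratio was 0.0532 (18.8-fold lower, 12.5 to 29.5), and 1 mutant cell held 37.5% of the mutant counts. The ratio was 0.0155 without the 5% deepest cells and 0.118 with cells thinned to 1000 UMIs. Its share of the counts of Cox6b1 and Cox6b2 fell from 45.0% to 5.23%, and 26.7% (19.7 to 34.7) of control but 3.45% (0.420 to 11.9) of mutant cells thinned to 1000 UMIs had a Cox6b2 UMI, beside 0.897% in control cluster 3. The share without thinning was 44.9% and 7.69% (median 5513 and 8059 UMIs). All 6 maturation markers were lower in this cluster of the mutant library too, among them Odam (15808 and 399.1 CPM), Klk4 (2561 and 472.2 CPM) and Wdr72 (105.8 and 4.30 CPM), so that the marker content of the cluster differed between the libraries and the part of this in the Cox6b2 and mt-Co1 values was not tested.

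**Figure D5:**
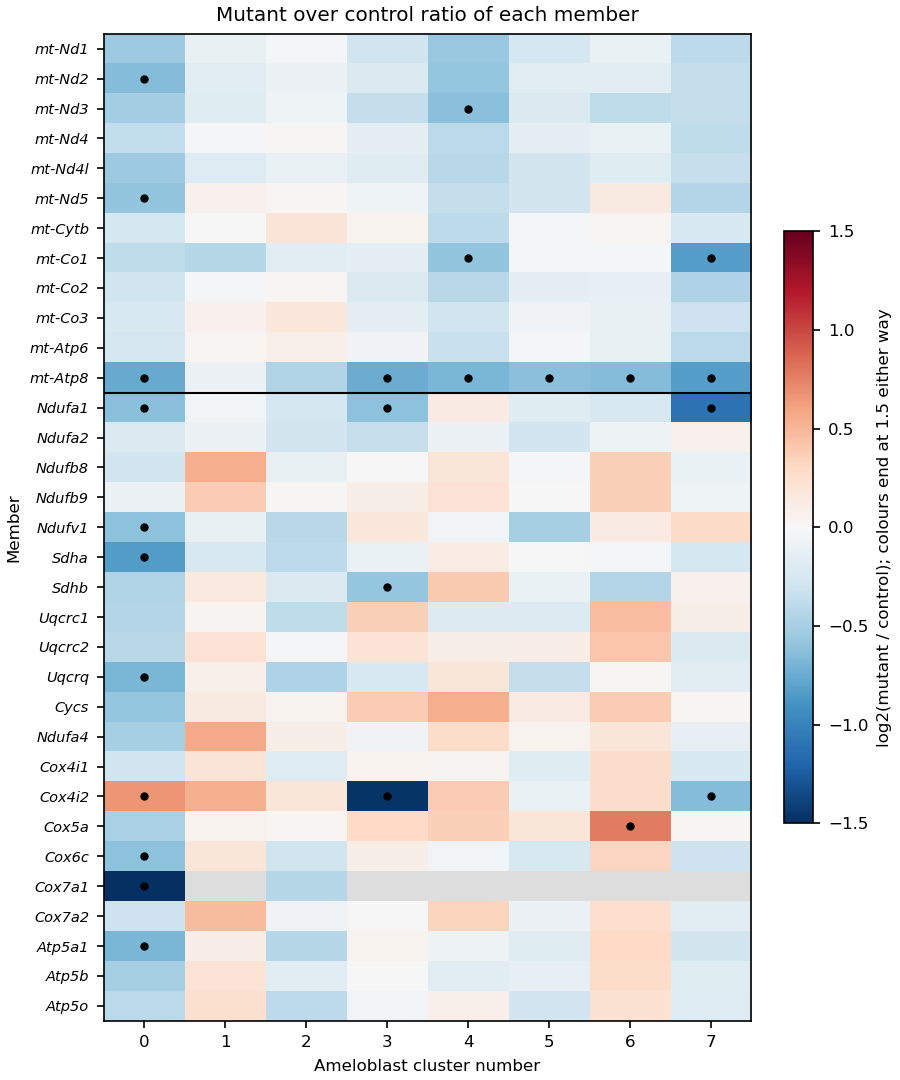
Mutant over control ratio (log2) of each member in lineage clusters 0 to 7; dots mark calls past 1.5-fold with an interval that leaves out 1, and grey cells did not pass the filter on low counts. Lower calls gather in cluster 0. The ratio of mt-Atp8 is below 1 in all 8 clusters, as are those of mt-Nd1, mt-Nd2, mt-Nd3, mt-Nd4l and mt-Co1. Cox4i2 is above 1 in cluster 0 and below 1 in cluster 3.

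Among the mitochondrial members, mt-Atp8 had the lowest median ratio in both sets of clusters, with mt-Nd3 next at 0.781 in the lineage. The mt-Atp8 ratio was below 1 in 8 of 8 lineage and 26 of 26 all-cell clusters. It was called lower in 6 lineage and 11 all-cell clusters. Being lower was not particular to mt-Atp8. Intervals lay below 1 in 8 of 8 lineage clusters for mt-Nd1, mt-Nd2, mt-Nd3, mt-Nd4l and mt-Co1, and in 7 of 8 for mt-Atp8. In 24 of 26 all-cell clusters they lay below 1 for mt-Atp8, and likewise for mt-Nd2 and mt-Nd3. In lineage clusters the mt-Atp8 ratios ran from 0.566 in cluster 7 to 0.943 in cluster 1. Its values went from 236.5 to 140.9 CPM in cluster 3 and from 638.1 to 414.7 CPM in cluster 5. The median ratio of mt-Atp8 over the lineage clusters was 0.629, beside 0.830 for mt-Co1, whose ratio in cluster 7 was as low (0.562), and 0.992 for mt-Cytb, the only mitochondrial subunit of complex III, with 3 intervals above 1 and 3 below. As a share of the mitochondrial counts mt-Atp8 went from 0.466% to 0.340% in the lineage as a whole. mt-Atp8 (chrM:7766-7969) and mt-Atp6 (chrM:7927-8607) lie on the same strand of 1 transcript in GRCm38, and the 43 bases they share are shown because a read there fits both genes; capitals mark the start codon of mt-Atp6 (chrM:7927-7969, +, from the GENCODE M21 transcripts).
mt-Atp8 and mt-Atp6: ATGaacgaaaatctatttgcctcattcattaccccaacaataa
Counts of mt-Atp8 are therefore uncertain, and mt-Atp6, which is counted far more often, stood at 9323 and 9024 CPM in cluster 3.

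Over the 26 all-cell clusters, 11 member and cluster pairs were called higher and 32 lower of 831, beside 7.09% and 3.92% of all gene pairs. Cox4i2 made 8 of the 11 higher calls, among them fibroblast-like cluster 13 (10.6 to 27.6 CPM, 2.59) and cycling cluster 11 (82.2 to 150 CPM, 1.82). It was called lower in 3 clusters, fibroblast-like cluster 7 (146.7 to 80.5 CPM, 0.549), secretory-like cluster 14 and maturation-like cluster 24. Differences of this size were thus counted outside the epithelium too. They come from 1 library each, and their cause was not tested. In endothelium-like cluster 8 and macrophage-like cluster 4, Cox4i2 went from 12.3 to 20.2 and from 18.6 to 31.8 CPM. Both levels were low in either library. Fibroblast-like cluster 21 had 9 nuclear members called lower, among them Cox4i1 (513.6 to 340.5 CPM) and Cox5a (187.7 to 92.2 CPM), with 11.2% of all genes called lower there; its mitochondrial sum was higher.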

How the data were processed

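Single-cell libraries (10x Genomics 3' platform, per the labels' protocols) of 1 control and 1 mutant mouse were deposited by the authors as UMI counts per gene and cell, with a table of cluster numbers. The submitters' processing notes name Cell Ranger, Seurat 3 and mm10; filters are not stated, and the deposited cells held 501 to 49967 UMIs and at most 30.0% mitochondrial counts. How the authors picked lineage cells is not given in the sources used here. The 33 members and the pathway and marker lists were chosen with earlier results of these data known.

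Counts were summed per cluster and library, divided by all counts of those cells and set as CPM. Ratios carry exact 95% conditional Poisson limits, shares exact Clopper-Pearson limits; both cover counting error only. Genes with at least 20 counts and a mean of 10 CPM were compared, in clusters of at least 50 cells. A cluster was named from at least 3 markers 1.5-fold up with a mean log2 fold of at least 1. Lineage clusters 0 and 4 passed this for erythroid markers, and were left unnamed because most of their 10 leading genes are no erythroid markers. Interval coverage was checked on counts simulated as Poisson, the model the ratio limits assume. The simulation holds no variation between cells or mice, so it checks the calculation only. Named genes were the 33 members, up to 5 called members in each direction per cluster, up to 4 genes of each pathway list, listed tissue isoforms and the 10 most alike genes. Alternatives covered totals, scaling (edgeR 4.0.16 TMM, DESeq2 1.42.0 size factors, R 4.3.3), cell filters, thinning to 1000 UMIs and the fold threshold. A Dspp-led cluster is called secretory-like from 3 of 4 markers. Sequences and positions come from RefSeq (GRCm38.p6) and GENCODE M21; of the 21 nuclear members, 13 had a promoter window, 5 overlap another gene on the same strand and 8 on the other strand, and their counts may be shared.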

Additional observations from a re-analysis of the deposited data

Results flagged for a closer look

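Cox4i2 went in opposite directions in different clusters, and the difference between clusters was not tested: its mutant over control ratio was 1.58 in lineage cluster 0 and 0.361 in lineage cluster 3, and 8.67 in all-cell cluster 23 (2 and 40 counts) and 0.445 in all-cell cluster 14. Cox5a stood at a ratio of 1.85 in secretory-like all-cell cluster 25 and 0.491 in fibroblast-like all-cell cluster 21 (38 and 36 counts). Cox7a2, the common isoform of subunit 7a, stood at 1.54 in all-cell cluster 23 (1.535 unrounded) and 0.486 in all-cell cluster 21 (48 and 45 counts). Each direction comes from 1 library of each genotype, so none of these differences was tested.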

How the results depend on the processing

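No paired analysis was possible because each genotype has 1 library. Of 430 alternative values, 257 stayed within counting error of the reported value or within 1.5 times a reported count, 165 moved and 8 changed direction. The log2 ratio of the lineage's mitochondrial sum (-0.30) became -0.33 with totals without mitochondrial genes, -0.19 without enamel matrix and haemoglobin genes, -0.29 with TMM and with DESeq2 scaling, -0.31 with at least 1000 UMIs, -0.24 with at most 10% mitochondrial counts, -0.29 without the 5% deepest cells, -0.23 with thinned cells and -0.19 as a mean of cells. For the nuclear sum (-0.27) these values were -0.29, -0.15, -0.26, -0.25, -0.28, -0.18, -0.25, -0.22 and -0.18. All-cell clusters with a higher nuclear sum fell from 11 to 7 with either scaling. Calls of members by lineage cluster went from 25 to 39 with TMM, 40 with DESeq2, 85 at a lower fold threshold and 3 at 2-fold, with 21 of the 25 among the calls of each scaling, 18 with at most 10% mitochondrial counts, 14 as a mean of cells (7 higher calls in place of 2) and 13 with thinned cells. Directions changed for the mitochondrial sum in cluster 0 (1.095, at most 10% mitochondrial counts, a filter on the measured quantity itself). They changed as well in cluster 1 (1.02 thinned, 1.05 as a mean of cells) and cluster 2 (0.900 with TMM, 0.908 with DESeq2). For the nuclear sum they changed in cluster 4 (0.966 as a mean of cells) and cluster 6 (0.924 and 0.921 with the same scalings). TMM moved the median log2 ratio of all genes by up to -0.26 (cluster 5). The cause of these changes was not tested. With 1 library a group, differences between mice and between genotypes cannot be told apart.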

Other observations

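The mutant-only lineage cluster 8 (91 cells, median 9045 UMIs) stood at 5603 CPM of the nuclear members and 7.60% of counts from the mitochondrial genome. Over all counts, its nuclear level lay between those of cluster 7 (5284 CPM) and cluster 3 (5795 CPM) of the same library. With matrix and haemoglobin genes taken out of the totals, it was the lowest of the mutant lineage clusters. The values were then 5609 CPM in cluster 8, 7717 CPM in cluster 7 and 10601 CPM in cluster 3. Cox7a1 had no count in cluster 8, whereas Cox6b2 made up 21.6% of the counts of Cox6b1 and Cox6b2. Cox6b2 was high in mesenchyme as well, at 31.0% and 29.9% of that pair in all-cell cluster 5 and 27.9% and 29.4% in cluster 6. Ndufa4l2, a relative of the complex IV subunit Ndufa4 known as a hypoxia-responsive gene, was a pericyte gene here, at 1422 CPM in control and 1435 CPM in mutant cells in pericyte or smooth muscle-like all-cell cluster 10.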
